A study of Homo sapiens with 6 samples.

Results

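The solute carriers (SLC) are membrane proteins that move ions, metals, sugars, amino acids, nucleotides, vitamins and drugs across the plasma membrane and the membranes of organelles. The members described here were the genes whose platform symbol begins with SLC and a digit and that were selected on detection, a probe having to reach a detection p under 0.05 on 2 or more of the 6 arrays. SLC2A1, SLC2A3, SLC16A3, SLC7A11, SLC7A5 and SLC3A2 were left out by name, and 5 of these passed the detection limit. The platform table listed 383 such symbols on 564 probes, of which 223 passed detection, and 218 genes remained out of 11817 named genes measured in the whole series. Of the 218, 204 are transporters by their symbol and 14 are antisense transcripts, pseudogenes or neighbouring genes with an SLC-like symbol. Another 160 SLC symbols did not pass, 22 with detection on 1 array and 138 on none.

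The cells were A549, a human lung adenocarcinoma line, grown in RPMI-1640 medium with fetal bovine serum. They were transfected by Lipofectamine RNAiMAX with a mimic, a synthetic double-stranded RNA, which was a negative control, miR-608 or miR-552-3p, in 3 groups of 2 arrays. RNA was taken 24 hours later from each group and read on Illumina bead arrays as 1 intensity per probe. Whether the 2 arrays of a group hold RNA of separate cultures is not in the labels, so p-values measure the spread between these arrays, which may be technical, and every group is a transfected line rather than tissue.

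A microRNA lowers messenger RNAs that pair with its seed, bases 2 to 8 from its 5′ end, and a mimic raises the level of that microRNA in the cell. The mature sequences of the transfected microRNAs follow, from RefSeq on GRCh38.p14, because their seeds set which transcripts each can pair with. The capitals mark the seed. The miR-608 gene product lies at chr10:100975000-100975024 on the plus strand and the miR-552-3p product at chr1:34669614-34669634 on the minus strand.
hsa-miR-608: aGGGGUGGuguugggacagcuccgu
hsa-miR-552-3p: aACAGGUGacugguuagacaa
The seeds carry the same base at 2 of 7 positions. Transcript sequences of the SLC genes were not used here, so no seed pairing was looked for.

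Transporters differ in what moves them. Some carriers exchange one solute for another, some couple uptake to the sodium or proton gradient, and some open a path down the solute's own gradient. In lung epithelium they set intracellular chloride, pH and metal content, and in a growing tumour line they supply amino acids, nucleotide sugars for glycosylation and metabolites for mitochondria. Levels below are normalised log2 signals, and a difference of 1 on this scale is a doubling of the normalised signal. An offset added before the log makes folds of dim genes smaller than the true ratios. A change is called where limma's Benjamini-Hochberg adjusted p, taken over all 16891 rows of the whole table, is under 0.05. In a bulk culture, fewer cells expressing a gene and less RNA per cell cannot be told apart.

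Median raw signals per array ranged from 181.7 to 200.7 and 18550 to 19758 probes were detected per array. Arrays of the same group correlated at 0.994 over all rows and arrays of different groups at 0.969 to 0.979. Of 9 epithelial and A549 marker genes, 8 were measured, and AKR1C1 did not pass detection. The log2 of the mean normalised signal of the 8 was 14.15 to 14.44 on every array. The brightest, ALDH1A1 and AKR1B10, weigh most in that mean. KRT18 was detected on all 6 arrays but dim, at 6.57 to 7.07. Single markers did differ between groups. KRT8 and CDH1 were called higher with miR-608 (log2 fold changes 0.41 and 0.62). With miR-552-3p EPCAM, CDH1 and ALDH1A1 were called lower (log2 fold changes -0.64, -0.28 and -0.26) and KRT19 higher (0.46), and their part was not tested. Of 8 alveolar type II markers 3 were measured, and the surfactant genes SFTPA1, SFTPB and SFTPC were not detected on 2 arrays. The log2 of the mean signal of the 3, SFTPD, ABCA3 and LAMP3, was 7.85 to 8.01 in the control, 8.62 to 8.75 with miR-608 and 8.02 to 8.08 with miR-552-3p. Of these ABCA3 and LAMP3 were called higher with miR-608, and their part in the results was not tested. Of 10 fibroblast and endothelial markers 2 were measured, and PTPRC, CD3E and CD4 among 10 immune markers were not detected. The 4 immune markers measured, CD8A, MS4A1, CD14 and CD68, gave 9.73 to 9.81 in the control, 9.54 to 9.70 with miR-608 and 10.22 to 10.31 with miR-552-3p on that scale. With miR-552-3p CD68 was called higher (log2 fold change 0.84, adjusted p = 0.00769) and CD14 lower (log2 fold change -1.22, adjusted p = 0.00125). CD8A, above background on 3 of the 6 arrays, was also called higher there (log2 fold change 0.43, adjusted p = 0.0211). The immune markers thus did not move one way, and their part was not tested.

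Detection chose the members, so it is given only as a description. Of the 218 members, 172 were detected on all 6 arrays, 31 on 3 to 5 and 15 on exactly 2. SLC18A1 stood just inside the limit, with detection p-values of 0.0234 on miR-552-3p array 1 and 0.0494 on miR-608 array 1. SLC14A1 stood just outside, with 0.0403 on miR-552-3p array 1 and 0.0519 on control array 2. In 3 members both detected arrays belonged to 1 group, SLC16A10 and SLC9B2 with miR-552-3p and SLC16A13 with miR-608, and these entered only through the group in which they are high. Their values are therefore given with no p, though 2 of them stand among the calls of each comparison.

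Many SLC genes were called with each mimic, in both directions. With miR-608, 95 of 218 members (43.6%) were called, 54 higher and 41 lower, beside 29.2% of all rows (14.3% higher and 15.0% lower) and 33.9% of named genes. With miR-552-3p, 97 members (44.5%) were called, 43 higher and 54 lower, beside 31.4% of all rows (14.6% higher and 16.8% lower) and 36.4% of named genes. Between the mimics 111 members (50.9%) were called, 67 higher and 44 lower with miR-608, beside 37.1% of all rows (18.9% higher and 18.2% lower) and 43.0% of named genes. Members detected on all 6 arrays were called in 48.3%, 49.4% and 56.4% of cases, beside 34.4%, 36.6% and 43.2% of all rows so detected. The members' shares thus stood above the background in each comparison, as a description of this list and with no test of the list. The class counts below stand beside these same shares of all rows called higher and lower, and no class was tested.

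Most called changes were under a doubling or halving. The median log2 fold change of the members was 0.00478 with miR-608 and -0.0998 after miR-552-3p. It was 0.0153 and 0.0203 over all rows, and 0.0156 and -0.00237 over named genes. These signed medians include uncalled members, and rises and falls offset each other in them. Without sign, the members' medians were 0.326 and 0.335, against 0.259 and 0.269 over all rows and 0.274 and 0.285 over named genes. At least a doubling or halving was called for 20 members with miR-608 (9 higher and 11 lower), for 21 with miR-552-3p (8 higher and 13 lower) and for 32 between the mimics (17 higher and 15 lower). The backgrounds at that size were 4.8%, 5.97% and 8.24% of all rows, and the shares of the 218 members stood above them, with no test. The values of the compared groups did not overlap in 161, 167 and 165 members (73.9%, 76.6% and 75.7%), beside 65.8%, 66.9% and 69.4% of all rows and 71.5%, 72.6% and 75.3% of named genes, so these shares stood near that of named genes. With 2 arrays a group, the counts moved with any array of the groups compared. The miR-608 count was 52 without control array 1, 54 without control array 2, 59 without miR-608 array 1 and 49 without miR-608 array 2. For miR-552-3p it was 53 and 54 without control arrays 1 and 2, and 53 and 56 without miR-552-3p arrays 1 and 2. Under every alternative fit, 42 of the 95 miR-608 calls, 44 of the 97 miR-552-3p calls and 64 of the 111 calls between the mimics held. A call given below for a gene's brightest probe held under every alternative in which the gene had a value unless the text says where it ended, and calls on other probes were not followed under the alternatives.

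**Figure D1:**
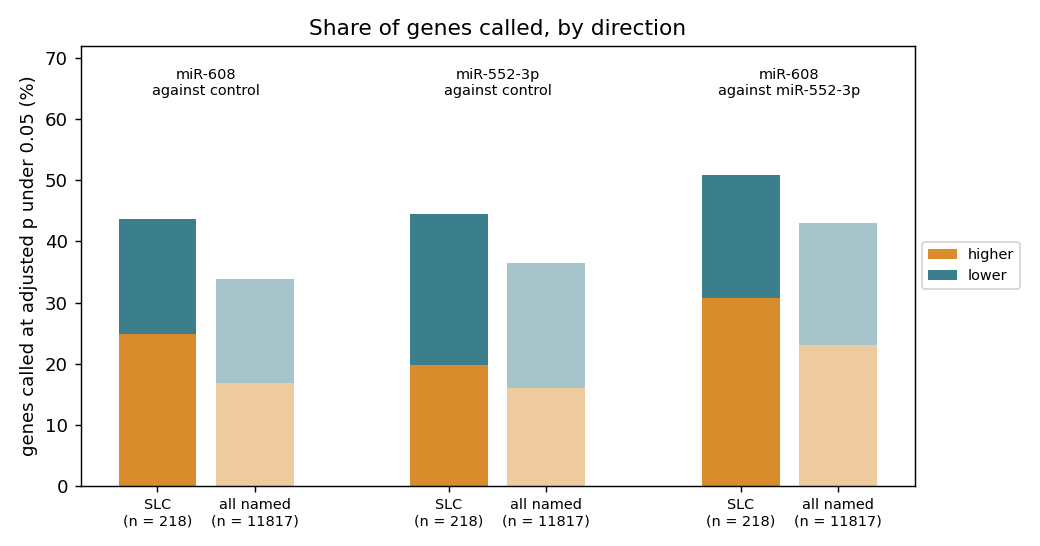
Percentage of genes called at adjusted p under 0.05 in each comparison (vertical axis), stacked as higher and lower, for the 218 SLC members (solid) and all 11817 named genes (pale). The SLC bars reach 43.6%, 44.5% and 50.9%, and the bars of all named genes 33.9%, 36.4% and 43.0%.

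**Figure D2:**
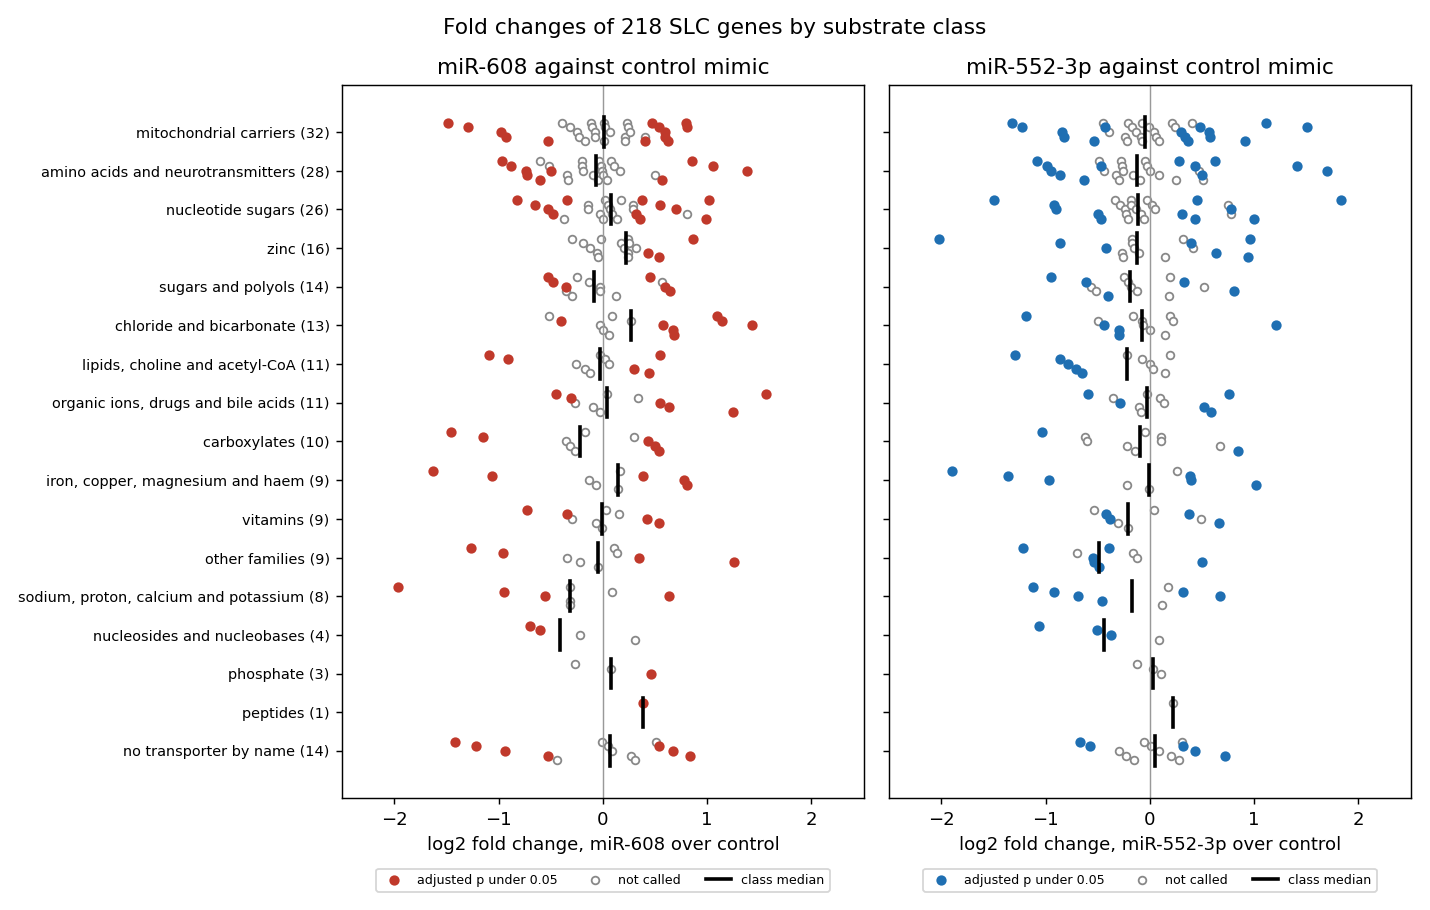
Log2 fold change of each SLC gene (horizontal axis) by substrate class, with the number of members in brackets, for each mimic over the control. Filled points were called, open points were not, and the black bar is the class median; most classes hold called genes on both sides of 0.

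Transporters of iron, copper, magnesium and haem held some of the largest changes of the set. Of 9 members, 3 higher and 2 lower were called with miR-608, 3 higher and 3 lower with miR-552-3p and 4 higher and 3 lower between the mimics. The normalised log2 signals of SLC40A1, ferroportin, the exporter that releases iron from cells, were 8.70 and 8.73 in the control, 8.59 and 8.57 after miR-608, and 6.76 and 6.86 after miR-552-3p. Both miR-552-3p arrays lay far below the other 4, and SLC40A1 was 3.74-fold lower (log2 fold change -1.90, SE 0.076, adjusted p = 0.000915) with miR-552-3p against the control. With miR-608 it was not called (log2 fold change -0.13, adjusted p = 0.254), and between the mimics it was 3.41-fold higher (log2 fold change 1.77, SE 0.076, adjusted p = 0.000506) with miR-608. SLC11A2, the divalent metal transporter that brings iron in across the membrane, gave 11.56 and 11.51 in the control, 11.44 and 11.49 after miR-608, and 11.88 and 11.95 after miR-552-3p. Its miR-552-3p arrays were the highest of the 6, 1.31-fold higher (log2 fold change 0.39, SE 0.075, adjusted p = 0.0173), and this call ended without control array 1, control array 2, miR-552-3p array 1 or miR-552-3p array 2 (adjusted p 0.0584 to 0.0841) and without the detection filter (adjusted p 0.0678).

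SLC31A1, the high-affinity copper importer CTR1, gave 10.49 and 10.52 in the control, 10.57 and 10.77 after miR-608, and 9.25 and 9.04 after miR-552-3p. Both miR-552-3p arrays lay below the other 4, 2.56-fold lower (log2 fold change -1.36, SE 0.11, adjusted p = 0.00187), while the miR-608 difference was not called (log2 fold change 0.16, adjusted p = 0.341). The direct comparison was 2.87-fold higher (log2 fold change 1.52, SE 0.11, adjusted p = 0.000992) with miR-608. SLC31A2, a relative of CTR1, gave 8.97 and 8.84 in the control, 9.70 and 9.73 after miR-608, and 9.16 and 9.16 after miR-552-3p. Here the miR-608 arrays were the highest, 1.75-fold higher (log2 fold change 0.81, SE 0.080, adjusted p = 0.00331), and the miR-552-3p arrays lay between the groups without a call against the control (log2 fold change 0.26, adjusted p = 0.064).

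The magnesium carriers of the SLC41 family differed in which mimic they were called with. SLC41A1, which exports magnesium in exchange for sodium, gave 7.42 and 7.67 in the control, 6.09 and 5.73 after miR-608, and 7.37 and 7.28 after miR-552-3p. Neither miR-608 array was above background, so the fall is a bound, at least 2.48-fold lower than in the control, with a fitted log2 fold change of -1.63 (adjusted p = 0.00303). SLC41A2, a magnesium transporter of the same family, gave 8.63 and 8.40 in the control, 8.68 and 8.64 after miR-608, and 9.54 and 9.51 after miR-552-3p. It rose with miR-552-3p, 2.02-fold higher (log2 fold change 1.02, SE 0.10, adjusted p = 0.00271), with both arrays above the other 4. SLC41A3, the third member, gave 10.27 and 10.37 in the control, 10.69 and 10.71 after miR-608, and 10.63 and 10.79 after miR-552-3p. Its rises with miR-608 (log2 0.39, adjusted p = 0.0301) and with the other mimic (log2 0.40, adjusted p = 0.0264) were smaller. The first ended without control array 1, control array 2, miR-608 array 1 or miR-608 array 2 (adjusted p 0.0782 to 0.127) and without the detection filter or with the mean over probes (adjusted p 0.0967 to 0.132), and the second ended without any 1 of the 6 arrays (adjusted p 0.051 to 0.115) and without the detection filter or with only the compared groups in the fit (adjusted p 0.0536 to 0.0844). The second SLC41A3 probe was not called with miR-608 (log2 fold change 0.06, adjusted p = 0.673). With miR-552-3p that probe was called higher (log2 fold change 0.37, adjusted p = 0.042). SLC48A1, which moves haem out of endosomes and lysosomes, gave 10.18 and 10.08 in the control, 8.93 and 9.20 after miR-608, and 9.21 and 9.11 after miR-552-3p. All 4 mimic arrays lay below both control arrays, and SLC48A1 was 2.09-fold lower (log2 fold change -1.07, SE 0.12, adjusted p = 0.0041) with miR-608 and 1.96-fold lower (log2 fold change -0.97, SE 0.12, adjusted p = 0.00435) with miR-552-3p. Its second probe was also called lower but fell less, with log2 fold changes of -0.60 (adjusted p = 0.00664) and -0.50 (adjusted p = 0.00899). SLC49A4, a lysosomal membrane protein also called DIRC2, was 1.72-fold higher (log2 fold change 0.78, SE 0.084, adjusted p = 0.00401) with miR-608. With any 1 array left out, the calls in this class numbered 4 to 5 with miR-608, 4 to 5 with miR-552-3p and 6 to 7 between the mimics.

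**Figure D3:**
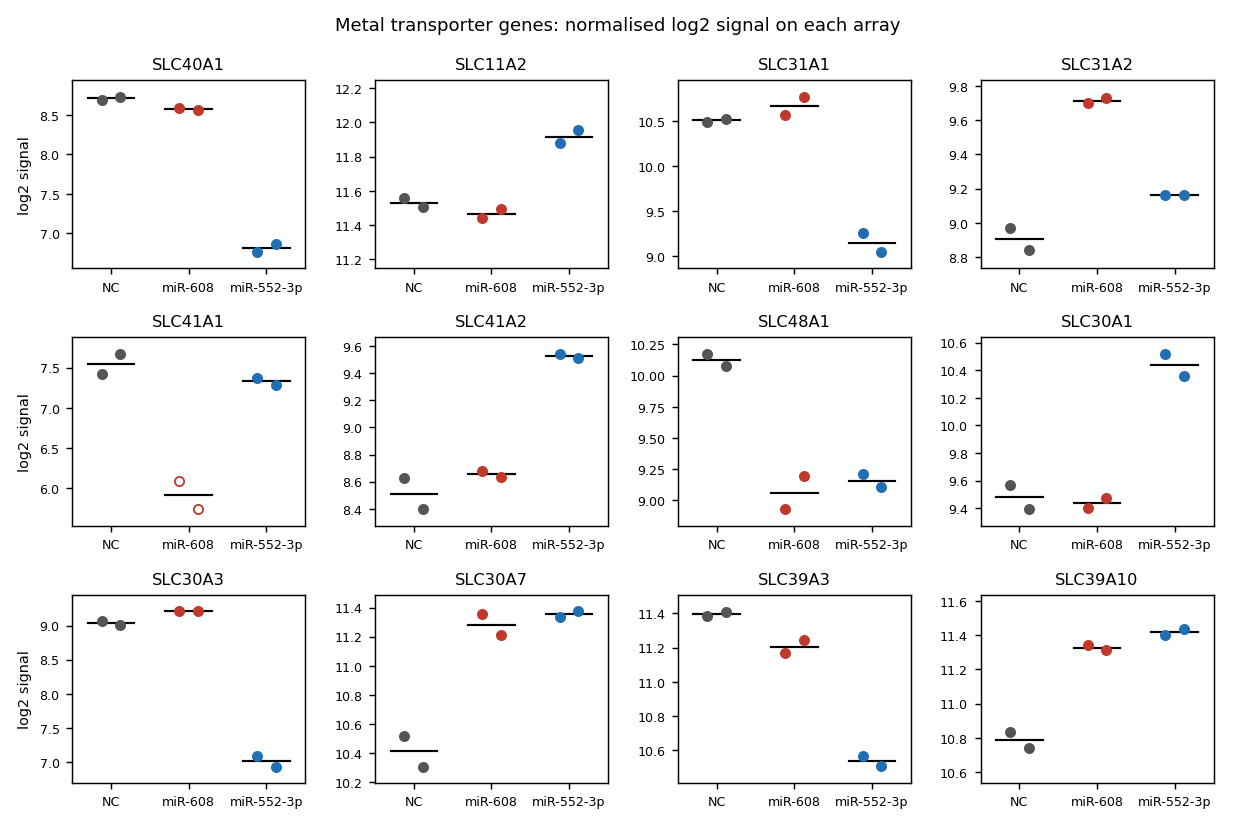
Normalised log2 signal (vertical axis, own scale in each panel) of 12 metal transporter genes on each array of the control (NC), miR-608 and miR-552-3p groups. Points are arrays, open points were not above background, and bars are group means; SLC40A1, SLC31A1 and SLC30A3 are low on both miR-552-3p arrays, and SLC30A1 and SLC41A2 are high there.

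Zinc is carried into the cytosol by the SLC39 (ZIP) family and out of it, or into organelles, by the SLC30 (ZnT) family. Of 16 zinc members, 3 higher and 0 lower were called with miR-608 on their brightest probes, beside 14.3% and 15.0% of all rows. On the same probes 4 were higher and 3 lower with miR-552-3p, and 4 higher and 1 lower between the mimics. A dimmer SLC30A5 probe was lower with miR-608 against the control (log2 fold change -0.62, adjusted p = 0.0131) and against miR-552-3p (log2 fold change -0.62, adjusted p = 0.00968). The brightest and the remaining SLC30A5 probes were not called. SLC30A3, known for loading zinc into synaptic vesicles of neurons, gave 9.06 and 9.02 in the control, 9.21 and 9.21 after miR-608, and 7.09 and 6.93 after miR-552-3p. Its miR-552-3p arrays lay far below the other 4, 4.08-fold lower (log2 fold change -2.03, SE 0.084, adjusted p = 0.000915), which is the lowest log2 fold change of the 218 members in that comparison. With miR-608 the difference was not called (log2 fold change 0.17, adjusted p = 0.194). SLC30A1, the zinc exporter ZnT1 of the plasma membrane, gave 9.57 and 9.39 in the control, 9.40 and 9.47 after miR-608, and 10.52 and 10.36 after miR-552-3p. It rose with miR-552-3p, 1.94-fold higher (log2 fold change 0.96, SE 0.10, adjusted p = 0.00335), and its second probe was also called higher, with a log2 fold change of 0.77 (adjusted p = 0.00636). SLC30A7, which fills the Golgi with zinc, gave 10.52 and 10.31 in the control, 11.35 and 11.21 after miR-608, and 11.34 and 11.38 after miR-552-3p. All 4 mimic arrays were above both control arrays, 1.82-fold higher (log2 fold change 0.87, SE 0.11, adjusted p = 0.00533) with miR-608 and 1.92-fold higher (log2 fold change 0.94, SE 0.11, adjusted p = 0.00365) with miR-552-3p.

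Among the importers, SLC39A10 gave 10.83 and 10.74 in the control, 11.34 and 11.31 after miR-608, and 11.40 and 11.44 after miR-552-3p. It was 1.46-fold higher (log2 fold change 0.54, SE 0.075, adjusted p = 0.0074) with miR-608 and 1.55-fold higher (log2 fold change 0.63, SE 0.075, adjusted p = 0.0042) with miR-552-3p, with no overlap between either mimic and the control. SLC39A3 gave 11.38 and 11.41 in the control, 11.17 and 11.25 after miR-608, and 10.57 and 10.51 after miR-552-3p on its brightest probe. That probe was 1.81-fold lower (log2 fold change -0.86, SE 0.074, adjusted p = 0.00198) with miR-552-3p and not called with miR-608 (log2 fold change -0.19, adjusted p = 0.12). Its other 2 probes were called lower with miR-608, at log2 fold changes of -0.67 (adjusted p = 0.0329) and -1.30 (adjusted p = 0.0174), so probes of this gene differ in call. SLC39A9 was higher with miR-608 and lower with miR-552-3p, at 8.31 and 8.30 in the control, 8.64 and 8.83 after miR-608, and 7.80 and 7.97 after miR-552-3p. The direct comparison was 1.81-fold higher (log2 fold change 0.85, SE 0.10, adjusted p = 0.00351), while the separate calls (log2 0.43, adjusted p = 0.0342) and (log2 -0.42, adjusted p = 0.0354) ended without control array 1, control array 2, miR-608 array 1 or miR-608 array 2 (adjusted p 0.0588 to 0.132) and without the detection filter (adjusted p 0.0951) for miR-608 and without control array 1, control array 2, miR-552-3p array 1 or miR-552-3p array 2 (adjusted p 0.0622 to 0.142) and without the detection filter (adjusted p 0.0966) for miR-552-3p. With any 1 array left out, the number called in this class was 2 to 3 with miR-608, 5 to 7 with miR-552-3p and 4 to 5 between the mimics.

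SLC30A1 is the zinc exporter whose gene is known to be switched on by the metal-responsive factor MTF1, which binds metal response elements. Its promoter is shown because SLC30A1 and SLC30A3 moved in opposite directions with miR-552-3p. The RefSeq window of 300 bases, chr1:211579112-211579411 on the minus strand of GRCh38.p14, was searched on both strands for the letters TGCACNC and TGCGCNC, and the capitals mark the matches.
SLC30A1 promoter: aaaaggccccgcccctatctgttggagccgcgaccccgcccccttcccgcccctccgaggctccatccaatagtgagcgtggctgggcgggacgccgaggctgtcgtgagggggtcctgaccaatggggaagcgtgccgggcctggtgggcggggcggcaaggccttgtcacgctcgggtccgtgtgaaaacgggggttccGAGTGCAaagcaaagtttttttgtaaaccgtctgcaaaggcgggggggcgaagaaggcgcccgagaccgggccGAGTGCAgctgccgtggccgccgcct
The window held 2 matches. Of 35116 windows of the same length, 29.6% held at least 1 match, as did 38.3% of the 253 windows of SLC members and 9 of 20 windows of zinc members. Windows were found for 178 of the 218 members, and several genes have more than 1. SLC30A3 held a match too, and SLC30A7, higher with both mimics, held none. A match in these letters describes the window and is no measured binding site.

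Chloride and bicarbonate transporters set cell volume and pH. Of 13 members, 6 higher and 1 lower were called with miR-608 (14.3% and 15.0% of all rows). With miR-552-3p 1 was higher and 4 lower (14.6% and 16.8% of all rows). Between the mimics 8 were higher and 1 lower with miR-608 (18.9% and 18.2% of all rows), and the class was not tested. SLC12A4, the potassium-chloride cotransporter KCC1 that lets salt leave swollen cells, gave 6.90 and 6.78 in the control, 8.26 and 8.28 after miR-608, and 8.07 and 8.03 after miR-552-3p. All 4 mimic arrays lay above both control arrays, 2.70-fold higher (log2 fold change 1.43, SE 0.078, adjusted p = 0.00136) with miR-608 and 2.32-fold higher (log2 fold change 1.21, SE 0.078, adjusted p = 0.00111) with miR-552-3p. SLC12A2, the sodium-potassium-chloride cotransporter NKCC1 that loads cells with chloride, moved the other way at 10.64 and 10.71 in the control, 10.32 and 10.23 after miR-608, and 9.55 and 9.43 after miR-552-3p. It was 2.27-fold lower (log2 fold change -1.18, SE 0.084, adjusted p = 0.00133) with miR-552-3p. The smaller fall with miR-608, 1.32-fold lower (log2 fold change -0.40, SE 0.084, adjusted p = 0.0232), ended without control array 1, control array 2, miR-608 array 1 or miR-608 array 2 (adjusted p 0.0701 to 0.104) and without the detection filter or with the mean over probes (adjusted p 0.0597 to 0.0793).

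SLC12A8 gave 7.29 and 7.16 in the control, 8.30 and 8.34 after miR-608, and 7.21 and 7.08 after miR-552-3p. Its miR-608 arrays lay above the other 4, which overlapped, 2.14-fold higher (log2 fold change 1.10, SE 0.090, adjusted p = 0.00214). SLC4A11, a proton transporter of the bicarbonate family that is mutated in a corneal dystrophy, gave 7.87 and 7.99 in the control, 9.18 and 8.96 after miR-608, and 7.39 and 7.59 after miR-552-3p. It was 2.21-fold higher (log2 fold change 1.14, SE 0.12, adjusted p = 0.00393) with miR-608 and 3.00-fold higher (log2 fold change 1.58, SE 0.12, adjusted p = 0.00104) between the mimics. The fall with miR-552-3p (log2 -0.44, adjusted p = 0.0461) ended without any 1 of the 6 arrays (adjusted p 0.0531 to 0.175) and without the detection filter, with the replicate block or with only the compared groups in the fit (adjusted p 0.0531 to 0.112). SLC26A6, an exchanger of chloride, oxalate and bicarbonate, gave 9.70 and 9.77 in the control, 10.42 and 10.42 after miR-608, and 9.68 and 9.65 after miR-552-3p. It rose with miR-608, 1.61-fold higher (log2 fold change 0.68, SE 0.072, adjusted p = 0.00392), a call that ended with the mean over probes (adjusted p 0.056). SLC4A2, the anion exchanger AE2, was 1.49-fold higher (log2 fold change 0.58, SE 0.087, adjusted p = 0.00936), which ended without control array 1 or miR-608 array 2 (adjusted p 0.0538). SLC12A9 was 1.59-fold higher (log2 fold change 0.67, SE 0.080, adjusted p = 0.00509) with miR-608 and 1.96-fold higher (log2 fold change 0.97, SE 0.080, adjusted p = 0.00124) between the mimics, and its fall with miR-552-3p (log2 -0.30, adjusted p = 0.0431) ended without any 1 of the 6 arrays (adjusted p 0.0728 to 0.168) and without the detection filter, with the replicate block or with only the compared groups in the fit (adjusted p 0.0728 to 0.145). The number called without any 1 array was 5 to 7 with miR-608, 2 with miR-552-3p and 5 to 9 between the mimics.

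Exchangers of sodium, protons, calcium and potassium use ion gradients to set cell pH and calcium. Of 8 members, 1 higher and 3 lower were called with miR-608, 2 higher and 4 lower with miR-552-3p and 3 higher and 3 lower between the mimics, numbers too small to set against the 15.0% and 16.8% of all rows called lower with the mimics. SLC24A1, known as the sodium-calcium-potassium exchanger of rod photoreceptors, gave 7.63 and 7.63 in the control, 5.63 and 5.70 after miR-608, and 6.93 and 6.95 after miR-552-3p. Neither miR-608 array was above background, so it was at least 2.64-fold lower with miR-608 (fitted log2 fold change -1.97, adjusted p = 0.00136), and with miR-552-3p it was 1.62-fold lower (log2 fold change -0.69, SE 0.071, adjusted p = 0.00296). SLC8B1, the sodium-calcium exchanger NCLX that lets calcium out of mitochondria, gave 10.20 and 10.04 in the control, 9.87 and 9.73 after miR-608, and 8.96 and 9.04 after miR-552-3p. Its miR-552-3p arrays were the lowest, 2.17-fold lower (log2 fold change -1.12, SE 0.098, adjusted p = 0.00202). SLC9A2, the sodium-proton exchanger NHE2 of epithelia, gave 8.54 and 8.51 in the control, 7.67 and 7.47 after miR-608, and 8.02 and 8.12 after miR-552-3p. It was 1.94-fold lower (log2 fold change -0.95, SE 0.098, adjusted p = 0.00373) with miR-608, and its fall with miR-552-3p (log2 -0.45, adjusted p = 0.0235) ended without control array 1, control array 2, miR-552-3p array 1 or miR-552-3p array 2 (adjusted p 0.0654 to 0.107) and without the detection filter (adjusted p 0.0687). SLC9B2, the sodium-proton antiporter NHA2, gave 5.81 and 6.10 in the control, 5.30 and 5.50 after miR-608, and 6.59 and 6.66 after miR-552-3p and was above background on the miR-552-3p arrays only. The miR-552-3p level was at least 1.35-fold higher than in the control, a description only, and no direction is read between the control and miR-608, which were both below background. SLC9B2 is still counted among the 3 lower with miR-608, the 2 higher with miR-552-3p and the 3 lower between the mimics. The count without any 1 array was 3 to 4 with miR-608, 3 to 5 with miR-552-3p and 3 to 7 between the mimics.

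**Figure D4:**
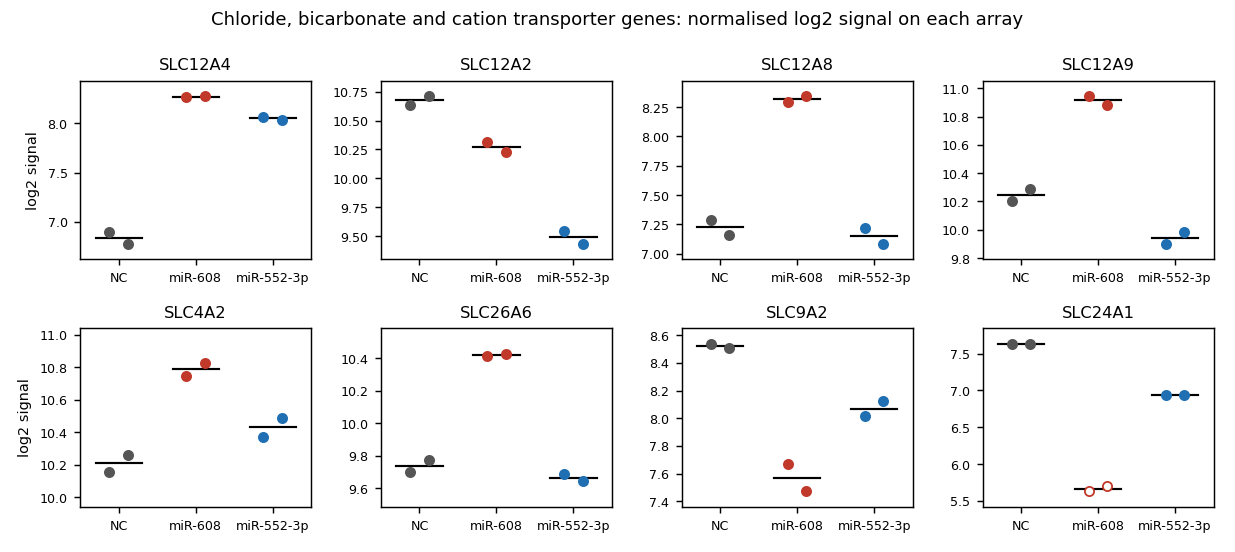
Normalised log2 signal (vertical axis, own scale in each panel) of 8 ion transporter genes on each array of the control (NC), miR-608 and miR-552-3p groups. Points are arrays, open points were not above background, and bars are group means; SLC12A4 is high on all 4 mimic arrays and SLC24A1 is below background on both miR-608 arrays.

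Amino acid carriers were called in both directions. Of 28 amino acid and neurotransmitter members, 4 higher and 6 lower were called with miR-608, 6 higher and 6 lower with miR-552-3p and 5 higher and 6 lower between the mimics. SLC7A1, the carrier CAT1 for arginine and lysine, gave 12.33 and 12.15 in the control, 11.33 and 11.39 after miR-608, and 12.86 and 12.87 after miR-552-3p. The miR-608 arrays lay below and the miR-552-3p arrays above both control arrays, 1.84-fold lower (log2 fold change -0.88, SE 0.089, adjusted p = 0.00354) with miR-608 and 1.54-fold higher (log2 fold change 0.62, SE 0.089, adjusted p = 0.00696) with miR-552-3p. SLC7A2, the related carrier CAT2, gave 10.57 and 10.51 in the control, 9.79 and 9.84 after miR-608, and 9.62 and 9.73 after miR-552-3p. It fell with both mimics, 1.65-fold lower (log2 fold change -0.72, SE 0.080, adjusted p = 0.00426) with miR-608 and 1.82-fold lower (log2 fold change -0.86, SE 0.080, adjusted p = 0.00232) with miR-552-3p. SLC3A1, the heavy chain rBAT that brings the cystine and dibasic amino acid exchanger to the membrane, gave 8.07 and 8.06 in the control, 7.61 and 7.85 after miR-608, and 9.50 and 9.44 after miR-552-3p. It was 2.65-fold higher (log2 fold change 1.41, SE 0.10, adjusted p = 0.00142) with miR-552-3p and 3.34-fold lower (log2 fold change -1.74, SE 0.10, adjusted p = 0.000674) with miR-608 in the direct comparison.

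SLC6A15, a sodium-coupled carrier of branched-chain amino acids and proline known mainly from neurons, gave 7.53 and 7.56 in the control, 7.58 and 7.58 after miR-608, and 9.35 and 9.15 after miR-552-3p. It was 3.25-fold higher (log2 fold change 1.70, SE 0.092, adjusted p = 0.000935) with miR-552-3p, and its other 2 probes were also called higher (log2 fold changes 1.53 and 1.02, adjusted p = 0.00392 and 0.014). SLC6A6, the taurine transporter, gave 8.19 and 7.94 in the control, 9.47 and 9.43 after miR-608, and 8.76 and 8.40 after miR-552-3p. It was 2.61-fold higher (log2 fold change 1.38, SE 0.15, adjusted p = 0.00427) with miR-608, and it was not called with miR-552-3p (log2 fold change 0.51, adjusted p = 0.0591). SLC38A9, the lysosomal arginine sensor that reports to mTORC1, gave 9.12 and 9.01 in the control, 10.26 and 9.97 after miR-608, and 9.50 and 9.63 after miR-552-3p. It was 2.07-fold higher (log2 fold change 1.05, SE 0.12, adjusted p = 0.00497) with miR-608, and the rise with miR-552-3p (log2 0.50, adjusted p = 0.0354) ended without control array 1, control array 2, miR-552-3p array 1 or miR-552-3p array 2 (adjusted p 0.0871 to 0.143) and with cyclic loess, without the detection filter or with the replicate block (adjusted p 0.056 to 0.0865). SLC36A1, which moves small amino acids out of lysosomes with protons, gave 7.67 and 7.55 in the control, 8.54 and 8.39 after miR-608, and 6.40 and 6.85 after miR-552-3p. Between the mimics it was 3.57-fold higher (log2 fold change 1.84, SE 0.17, adjusted p = 0.00161) with miR-608. Its rise with miR-608 (log2 0.85, adjusted p = 0.0197) ended without control array 1, control array 2, miR-608 array 1 or miR-608 array 2 (adjusted p 0.0652 to 0.0928), and its fall with miR-552-3p (log2 -0.98, adjusted p = 0.0119) ended without control array 1 or control array 2 (adjusted p 0.0513 to 0.0662).

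SLC38A12, the protein TMEM104, gave 7.95 and 7.97 in the control, 7.38 and 7.33 after miR-608, and 6.98 and 7.03 after miR-552-3p. It was 1.52-fold lower (log2 fold change -0.61, SE 0.071, adjusted p = 0.00498) with miR-608 and 1.94-fold lower (log2 fold change -0.95, SE 0.071, adjusted p = 0.00145) with miR-552-3p, so all 4 mimic arrays lay below the control. SLC6A16, an orphan of the neurotransmitter carrier family, gave 8.18 and 7.71 in the control, 6.91 and 7.04 after miR-608, and 7.14 and 6.57 after miR-552-3p. Its falls (log2 -0.97, adjusted p = 0.039) with miR-608 and (log2 -1.09, adjusted p = 0.0265) with miR-552-3p ended without control array 1, control array 2, miR-608 array 1 or miR-608 array 2 (adjusted p 0.0596 to 0.151) and without the detection filter (adjusted p 0.0761) and without control array 1, miR-608 array 1, miR-608 array 2 or miR-552-3p array 2 (adjusted p 0.052 to 0.109) and without the detection filter or with only the compared groups in the fit (adjusted p 0.0509 to 0.052), respectively. Uncalled in all 3 comparisons were 13 members, the glutamine carriers SLC1A5 and SLC38A2 among them. When any 1 array was left out, the number called was 6 to 10 with miR-608, 6 to 9 with miR-552-3p and 5 to 10 between the mimics.

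The mitochondrial SLC25 family moves metabolites across the inner mitochondrial membrane. Of 32 members, 8 higher and 5 lower were called with miR-608, 9 higher and 6 lower with miR-552-3p and 12 higher and 10 lower between the mimics. SLC25A22, a glutamate carrier, gave 9.89 and 9.98 in the control, 8.55 and 8.73 after miR-608, and 10.86 and 10.84 after miR-552-3p. The groups separated in both directions from the control, 2.45-fold lower (log2 fold change -1.29, SE 0.093, adjusted p = 0.00177) with miR-608 and 1.89-fold higher (log2 fold change 0.91, SE 0.093, adjusted p = 0.00289) with miR-552-3p. Between the mimics SLC25A22 was 4.62-fold lower (log2 fold change -2.21, SE 0.093, adjusted p = 0.000506) with miR-608, the lowest value of any member there. SLC25A12, the aspartate-glutamate carrier aralar, gave 8.99 and 8.97 in the control, 8.41 and 8.51 after miR-608, and 9.64 and 9.46 after miR-552-3p. It was 2.13-fold lower (log2 fold change -1.09, SE 0.092, adjusted p = 0.00132) with miR-608 between the mimics. Its fall with miR-608 (log2 -0.52, adjusted p = 0.0144) ended without control array 1, control array 2, miR-608 array 1 or miR-608 array 2 (adjusted p 0.0526 to 0.073), and its rise with miR-552-3p (log2 0.57, adjusted p = 0.0102) ended without control array 1 or control array 2 (adjusted p 0.0526 to 0.0548).

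SLC25A1, which exports citrate to the cytosol for fatty acid and sterol synthesis, gave 10.36 and 10.36 in the control, 10.63 and 10.55 after miR-608, and 8.93 and 9.13 after miR-552-3p. Both miR-552-3p arrays lay below the other 4, 2.51-fold lower (log2 fold change -1.33, SE 0.095, adjusted p = 0.00136). The calcium-regulated carriers of ATP-magnesium and phosphate did not move as a group. SLC25A24 gave 8.94 and 8.90 in the control, 9.48 and 9.55 after miR-608, and 10.36 and 10.49 after miR-552-3p and rose with each mimic, 1.51-fold higher (log2 fold change 0.59, SE 0.084, adjusted p = 0.00787) with miR-608 and 2.84-fold higher (log2 fold change 1.50, SE 0.084, adjusted p = 0.000953) with miR-552-3p. SLC25A23 gave 10.94 and 11.04 in the control, 9.47 and 9.53 after miR-608, and 10.57 and 10.54 after miR-552-3p and was 2.81-fold lower (log2 fold change -1.49, SE 0.077, adjusted p = 0.00136) with miR-608. Its fall with miR-552-3p (log2 -0.43, adjusted p = 0.0133) ended without control array 2, miR-552-3p array 1 or miR-552-3p array 2 (adjusted p 0.0584 to 0.0675) and without the detection filter (adjusted p 0.051). SLC25A25 was 1.54-fold higher (log2 fold change 0.63, SE 0.082, adjusted p = 0.00653) with miR-608.

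SLC25A37, mitoferrin 1, which brings iron into mitochondria, gave 9.15 and 8.80 in the control, 9.65 and 9.90 after miR-608, and 10.12 and 10.04 after miR-552-3p. It was 2.16-fold higher (log2 fold change 1.11, SE 0.15, adjusted p = 0.0064) with miR-552-3p, and its rise with miR-608 (log2 0.81, adjusted p = 0.0178) ended without control array 2 or miR-608 array 2 (adjusted p 0.0645 to 0.0799). SLC25A44, a carrier of branched-chain amino acids, gave 10.73 and 10.89 in the control, 9.85 and 9.82 after miR-608, and 10.38 and 10.17 after miR-552-3p. It was 1.97-fold lower (log2 fold change -0.98, SE 0.11, adjusted p = 0.00419) with miR-608, and its smaller fall with miR-552-3p (log2 -0.53, adjusted p = 0.0187) ended without control array 2 or miR-552-3p array 2 (adjusted p 0.0771 to 0.0863) and without the detection filter (adjusted p 0.0517). SLC25A35 gave 7.31 and 7.08 in the control, 6.98 and 6.78 after miR-608, and 5.84 and 6.10 after miR-552-3p. Neither miR-552-3p array was above background, so it was at least 1.98-fold lower with miR-552-3p (fitted log2 fold change -1.22, adjusted p = 0.00396). SLC25A29, a carrier of basic amino acids, gave 6.82 and 7.18 in the control, 7.78 and 7.81 after miR-608, and 6.04 and 6.27 after miR-552-3p, with miR-552-3p array 1 not above background, and was 3.11-fold higher (log2 fold change 1.64, SE 0.15, adjusted p = 0.00158) with miR-608 between the mimics. Its rise with miR-608 (log2 0.80, adjusted p = 0.0169) ended without control array 1, miR-608 array 1 or miR-608 array 2 (adjusted p 0.0583 to 0.0767) and its fall with miR-552-3p (log2 -0.84, adjusted p = 0.0131) ended without miR-552-3p array 1 (adjusted p 0.0654). The ATP and ADP exchangers SLC25A4 and SLC25A5 and the phosphate carrier SLC25A3 were not called in any comparison on their brightest probes, and a dimmer SLC25A3 probe was lower with miR-608 between the mimics (log2 fold change -0.81, adjusted p = 0.0326). With any 1 array left out, the number called in this class was 5 to 12 with miR-608, 7 to 13 with miR-552-3p and 14 to 20 between the mimics.

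Nucleotide sugar transporters of the SLC35 family feed the Golgi and endoplasmic reticulum with the donors of glycosylation, and several members have no known substrate. Of 26 members, 7 higher and 5 lower were called with miR-608, 6 higher and 5 lower with miR-552-3p and 6 higher and 5 lower between the mimics. SLC35B4, a carrier of UDP-xylose and UDP-N-acetylglucosamine, gave 10.21 and 9.97 in the control, 10.28 and 10.16 after miR-608, and 8.65 and 8.55 after miR-552-3p. Its miR-552-3p arrays lay below the other 4, 2.81-fold lower (log2 fold change -1.49, SE 0.11, adjusted p = 0.00146). SLC35D2, which carries UDP-N-acetylglucosamine, gave 9.27 and 9.37 in the control, 10.02 and 10.03 after miR-608, and 8.34 and 8.47 after miR-552-3p. It was 1.63-fold higher (log2 fold change 0.71, SE 0.086, adjusted p = 0.00533) with miR-608 and 1.89-fold lower (log2 fold change -0.92, SE 0.086, adjusted p = 0.00236) with miR-552-3p, and no groups overlapped. SLC35G1 gave 9.39 and 9.58 in the control, 8.62 and 8.69 after miR-608, and 10.32 and 10.19 after miR-552-3p and ran the opposite way, 1.77-fold lower (log2 fold change -0.82, SE 0.10, adjusted p = 0.00555) with miR-608 and 1.71-fold higher (log2 fold change 0.77, SE 0.10, adjusted p = 0.00555) with miR-552-3p.

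SLC35G2 gave 9.79 and 9.77 in the control, 10.77 and 10.82 after miR-608, and 10.72 and 10.85 after miR-552-3p. All 4 mimic arrays were above the control, 2.02-fold higher (log2 fold change 1.01, SE 0.079, adjusted p = 0.00199) with miR-608 and 2.00-fold higher (log2 fold change 1.001, SE 0.079, adjusted p = 0.00169) with miR-552-3p. SLC35F3, a thiamine transporter, gave 6.08 and 6.74 in the control, 7.39 and 7.41 after miR-608, and 8.30 and 8.19 after miR-552-3p, and control array 1 was not above background. With miR-552-3p it was 3.56-fold higher (log2 fold change 1.83, SE 0.22, adjusted p = 0.00448), the largest rise of any member in that comparison. With miR-608 its rise (log2 0.99, adjusted p = 0.0282) ended without miR-608 array 1, miR-608 array 2, miR-552-3p array 1 or miR-552-3p array 2 (adjusted p 0.0552 to 0.107) and without the detection filter or with only the compared groups in the fit (adjusted p 0.0552 to 0.0565). SLC35F5 gave 10.55 and 10.52 in the control, 10.92 and 10.86 after miR-608, and 9.73 and 9.53 after miR-552-3p and was 1.87-fold lower (log2 fold change -0.90, SE 0.093, adjusted p = 0.00303) with miR-552-3p. Its rise with miR-608 (log2 0.36, adjusted p = 0.0437) ended without control array 1, control array 2, miR-608 array 1 or miR-608 array 2 (adjusted p 0.114 to 0.16) and without the detection filter or with the replicate block (adjusted p 0.0542 to 0.128). Without any 1 array, SLC35 calls numbered 3 to 9 with miR-608, 6 to 10 with miR-552-3p and 6 to 10 between the mimics.

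Of 14 sugar and polyol carriers, 3 higher and 3 lower were called with miR-608, 2 higher and 3 lower with miR-552-3p and 5 higher and 2 lower between the mimics, none of them by a doubling or halving against the control. SLC37A4, which brings glucose 6-phosphate into the endoplasmic reticulum, gave 11.40 and 11.39 in the control, 10.86 and 10.88 after miR-608, and 10.44 and 10.46 after miR-552-3p. It was 1.44-fold lower (log2 fold change -0.52, SE 0.068, adjusted p = 0.00642) with miR-608 and 1.93-fold lower (log2 fold change -0.95, SE 0.068, adjusted p = 0.00138) with miR-552-3p, with all 4 mimic arrays below the control. SLC2A6, the lysosomal glucose transporter GLUT6, gave 8.81 and 8.88 in the control, 9.49 and 9.49 after miR-608, and 9.11 and 8.98 after miR-552-3p and was 1.56-fold higher (log2 fold change 0.64, SE 0.082, adjusted p = 0.00606) with miR-608. SLC2A8, the intracellular glucose transporter GLUT8, gave 10.32 and 10.33 in the control, 10.92 and 10.92 after miR-608, and 9.88 and 9.98 after miR-552-3p. It was 1.51-fold higher (log2 fold change 0.59, SE 0.074, adjusted p = 0.00578) with miR-608 and 1.99-fold higher (log2 fold change 0.99, SE 0.074, adjusted p = 0.000987) between the mimics. Its fall with miR-552-3p (log2 -0.40, adjusted p = 0.0148) ended without control array 1, control array 2 or miR-552-3p array 1 (adjusted p 0.0665 to 0.0753) and without the detection filter (adjusted p 0.0597). SLC45A3, the protein prostein, was 1.53-fold lower (log2 fold change -0.61, SE 0.080, adjusted p = 0.00562) with miR-552-3p. The calls were 3 to 6 with miR-608, 2 to 4 with miR-552-3p and 3 to 6 between the mimics without any 1 array.

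Lipid, choline and acetyl-CoA transporters supply fatty acids and membrane precursors. Of 11 members, 3 higher and 2 lower were called with miR-608, 0 higher and 5 lower with miR-552-3p (16.8% of all rows were lower there) and 4 higher and 1 lower with miR-608 between the mimics. SLC27A1, a fatty acid transport protein with acyl-CoA synthetase activity, gave 7.55 and 7.48 in the control, 7.98 and 8.15 after miR-608, and 6.21 and 6.25 after miR-552-3p, and miR-552-3p array 1 was not above background. It was 2.44-fold lower (log2 fold change -1.29, SE 0.089, adjusted p = 0.00125) with miR-552-3p and 3.57-fold higher (log2 fold change 1.84, SE 0.089, adjusted p = 0.000528) with miR-608 between the mimics. Its rise with miR-608 (log2 0.55, adjusted p = 0.0117) ended without control array 1, control array 2 or miR-608 array 2 (adjusted p 0.0529 to 0.0629). SLC27A3, of the same family, gave 7.85 and 7.51 in the control, 6.54 and 6.62 after miR-608, and 7.16 and 6.90 after miR-552-3p and was 2.14-fold lower (log2 fold change -1.09, SE 0.15, adjusted p = 0.00746) with miR-608. Its fall with miR-552-3p (log2 -0.65, adjusted p = 0.03) ended without control array 1, miR-608 array 1, miR-608 array 2, miR-552-3p array 1 or miR-552-3p array 2 (adjusted p 0.0553 to 0.121) and without the detection filter or with only the compared groups in the fit (adjusted p 0.0576 to 0.0661). SLC27A5, known as the bile acid CoA ligase of liver, gave 8.90 and 8.75 in the control, 7.90 and 7.94 after miR-608, and 8.90 and 9.13 after miR-552-3p and was 1.88-fold lower (log2 fold change -0.91, SE 0.11, adjusted p = 0.00533) with miR-608. SLC44A2, a choline transporter, gave 9.19 and 9.29 in the control, 9.28 and 9.25 after miR-608, and 8.40 and 8.35 after miR-552-3p and was 1.82-fold lower (log2 fold change -0.87, SE 0.077, adjusted p = 0.00212) with miR-552-3p, the miR-608 difference being uncalled (log2 fold change 0.02, adjusted p = 0.846). The number called without any 1 array was 2 to 4 with miR-608, 3 to 4 with miR-552-3p and 5 to 6 between the mimics.

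Carboxylate carriers of 10 members had 3 higher and 2 lower with miR-608, 1 higher and 1 lower with miR-552-3p and 2 higher and 2 lower between the mimics. SLC16A9, a carnitine carrier of the monocarboxylate family, gave 9.23 and 9.26 in the control, 7.90 and 7.68 after miR-608, and 8.19 and 8.24 after miR-552-3p. All 4 mimic arrays lay below both control arrays, 2.74-fold lower (log2 fold change -1.46, SE 0.099, adjusted p = 0.00163) with miR-608 and 2.05-fold lower (log2 fold change -1.04, SE 0.099, adjusted p = 0.00252) with miR-552-3p. SLC16A14, an orphan of that family, gave 7.65 and 7.57 in the control, 6.71 and 6.20 after miR-608, and 6.92 and 7.05 after miR-552-3p, with miR-608 array 2 not above background. It was 2.22-fold lower (log2 fold change -1.15, SE 0.18, adjusted p = 0.0105) with miR-608, which ended without control array 1 or control array 2 (adjusted p 0.0527 to 0.0611). SLC16A10, the carrier TAT1 of aromatic amino acids and thyroid hormone, gave 6.16 and 6.06 in the control, 5.86 and 5.73 after miR-608, and 6.91 and 7.003 after miR-552-3p and was above background on the miR-552-3p arrays only. It was at least 1.70-fold higher with miR-552-3p than in the control, as a description, and it is the 1 carboxylate member counted as higher there. SLC16A13 gave 5.90 and 5.96 in the control, 6.42 and 6.30 after miR-608, and 5.92 and 6.15 after miR-552-3p and was above background with miR-608 only, at least 1.12-fold higher than in the control, again as a description. It is among the 3 carboxylate members counted as higher with miR-608, and it entered only through those arrays. SLC16A5 was 1.41-fold higher (log2 fold change 0.50, SE 0.087, adjusted p = 0.0136) with miR-608, and ended without control array 1 or miR-608 array 2 (adjusted p 0.0677 to 0.0693). Its second probe was not called (log2 fold change 0.47, adjusted p = 0.179). When any 1 array was left out, the number called was 1 to 5 with miR-608, 2 to 4 with miR-552-3p and 2 to 4 between the mimics.

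Organic ion and drug carriers held the largest rise with miR-608. Of 11 members, 4 higher and 2 lower were called with miR-608, 3 higher and 2 lower with miR-552-3p and 3 higher and 3 lower between the mimics. SLC22A4, the ergothioneine transporter OCTN1, gave 8.12 and 7.98 in the control, 9.65 and 9.58 after miR-608, and 8.18 and 8.11 after miR-552-3p. Both miR-608 arrays lay above the other 4, 2.96-fold higher (log2 fold change 1.56, SE 0.085, adjusted p = 0.00136), and the second probe was called higher too (log2 fold change 1.55, adjusted p = 0.00256). The related carnitine transporter OCTN2, SLC22A5, gave 9.86 and 9.94 in the control, 9.95 and 9.93 after miR-608, and 10.46 and 10.37 after miR-552-3p. With miR-608 it was not called (log2 fold change 0.04, adjusted p = 0.741), and it was 1.43-fold higher (log2 fold change 0.52, SE 0.078, adjusted p = 0.00818) with miR-552-3p. SLC22A17, a receptor for the siderophore-binding protein lipocalin 2, gave 7.32 and 7.61 in the control, 8.78 and 8.64 after miR-608, and 6.84 and 6.89 after miR-552-3p. It was 2.37-fold higher (log2 fold change 1.25, SE 0.12, adjusted p = 0.0032) with miR-608 and 3.59-fold higher (log2 fold change 1.84, SE 0.12, adjusted p = 0.000772) between the mimics. Its fall with miR-552-3p (log2 -0.60, adjusted p = 0.0196) ended without control array 2, miR-552-3p array 1 or miR-552-3p array 2 (adjusted p 0.0638 to 0.0885). SLC17A3, a urate transporter of kidney, gave 6.60 and 6.40 in the control, 6.15 and 6.31 after miR-608, and 7.24 and 7.27 after miR-552-3p, with miR-608 array 1 not above background, and was 1.69-fold higher (log2 fold change 0.76, SE 0.11, adjusted p = 0.00669) with miR-552-3p. With any 1 array left out, the number called in this class was 2 to 5 with miR-608, 2 to 4 with miR-552-3p and 4 to 6 between the mimics.

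Nucleoside carriers supply the salvage of purines and pyrimidines. Of 4 members, 0 higher and 2 lower were called with miR-608 and 0 higher and 3 lower with miR-552-3p, in a class too small to read against the 15.0% and 16.8% of all rows called lower. SLC29A4, the monoamine and adenosine transporter PMAT, gave 10.52 and 10.59 in the control, 9.89 and 10.01 after miR-608, and 9.55 and 9.42 after miR-552-3p. It was 2.10-fold lower (log2 fold change -1.07, SE 0.090, adjusted p = 0.00188) with miR-552-3p, and its fall with miR-608 (log2 -0.61, adjusted p = 0.00882) ended without control array 2 (adjusted p 0.0521). SLC29A2, the equilibrative nucleoside transporter ENT2, gave 9.89 and 9.75 in the control, 9.06 and 9.18 after miR-608, and 9.22 and 9.40 after miR-552-3p. Its falls (log2 -0.70, adjusted p = 0.00914) and (log2 -0.51, adjusted p = 0.0203) ended without control array 1 or miR-608 array 1 (adjusted p 0.0516 to 0.0526) for miR-608 and without control array 1, control array 2 or miR-552-3p array 1 (adjusted p 0.053 to 0.0943) and without the detection filter (adjusted p 0.0569) for miR-552-3p. SLC29A3, the lysosomal transporter ENT3, was 1.61-fold higher (log2 fold change 0.69, SE 0.10, adjusted p = 0.00642) with miR-608 between the mimics, and its fall with miR-552-3p (log2 -0.37, adjusted p = 0.0464) ended without any 1 of the 6 arrays (adjusted p 0.0516 to 0.174) and without the detection filter, with the replicate block or with only the compared groups in the fit (adjusted p 0.0814 to 0.126). SLC43A3, a purine base transporter, was not called. Leave-one-array-out counts were 1 to 2 with miR-608, 1 to 2 with miR-552-3p and 1 to 2 between the mimics.

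Of 9 vitamin carriers, 2 higher and 2 lower were called with miR-608, 2 higher and 2 lower with miR-552-3p and 2 higher and 2 lower between the mimics. SLC19A3, a thiamine transporter, gave 8.13 and 8.25 in the control, 7.48 and 7.45 after miR-608, and 7.77 and 7.85 after miR-552-3p. It was 1.66-fold lower (log2 fold change -0.73, SE 0.081, adjusted p = 0.00431) with miR-608, and its fall with miR-552-3p (log2 -0.38, adjusted p = 0.0221) ended without control array 1, control array 2, miR-552-3p array 1 or miR-552-3p array 2 (adjusted p 0.054 to 0.102) and without the detection filter or with an intensity trend (adjusted p 0.0548 to 0.0789). SLC19A1, the reduced folate carrier, gave 7.89 and 7.99 in the control, 7.66 and 7.64 after miR-608, and 8.76 and 8.45 after miR-552-3p. It was 1.94-fold lower (log2 fold change -0.95, SE 0.12, adjusted p = 0.00411) with miR-608 between the mimics, and its rise with miR-552-3p (log2 0.66, adjusted p = 0.0151) ended without control array 1 or control array 2 (adjusted p 0.0573 to 0.0784). SLC52A2, a riboflavin transporter, gave 11.54 and 11.59 in the control, 12.20 and 11.999 after miR-608, and 11.33 and 11.37 after miR-552-3p and was 1.68-fold higher (log2 fold change 0.75, SE 0.095, adjusted p = 0.00384) with miR-608 between the mimics. SLC5A6, which carries biotin and pantothenate, gave 11.62 and 11.50 in the control, 11.26 and 11.18 after miR-608, and 11.13 and 11.15 after miR-552-3p. Its falls (log2 -0.34, adjusted p = 0.0318) with miR-608 and (log2 -0.42, adjusted p = 0.0158) with miR-552-3p ended without any 1 of the 6 arrays (adjusted p 0.0623 to 0.13) and without the detection filter, with the replicate block or with only the compared groups in the fit (adjusted p 0.0535 to 0.111) and without control array 1, miR-552-3p array 1 or miR-552-3p array 2 (adjusted p 0.0671 to 0.0756) and without the detection filter (adjusted p 0.0576). Calls without any 1 array were 1 to 3 with miR-608, 0 to 3 with miR-552-3p and 2 to 3 between the mimics.

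Of 3 phosphate carriers, 1 higher and 0 lower were called with miR-608 and 0 higher and 0 lower with miR-552-3p. SLC20A1, a phosphate importer, gave 13.02 and 12.99 in the control, 13.03 and 13.13 after miR-608, and 12.83 and 12.93 after miR-552-3p and was not called in any comparison. SLC20A2, its close relative, gave 8.42 and 8.47 in the control, 8.89 and 8.91 after miR-608, and 8.60 and 8.35 after miR-552-3p. Its rise with miR-608 (log2 0.46, adjusted p = 0.03) ended without control array 1, control array 2, miR-608 array 1 or miR-608 array 2 (adjusted p 0.0994 to 0.122) and without the detection filter or with the replicate block (adjusted p 0.0534 to 0.0838). SLC34A2, the phosphate transporter known from alveolar type II cells, was above background on control array 1 and miR-552-3p array 1 only and was not called. The 1 peptide carrier, SLC15A4 of endolysosomes, gave 11.18 and 11.29 in the control, 11.63 and 11.61 after miR-608, and 11.50 and 11.41 after miR-552-3p, and its rise with miR-608 (log2 0.38, adjusted p = 0.023) ended without control array 1, control array 2, miR-608 array 1 or miR-608 array 2 (adjusted p 0.0613 to 0.102) and without the detection filter (adjusted p 0.0823).

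Other families gave 9 members, with 2 higher and 2 lower called with miR-608. With miR-552-3p 1 was higher and 5 lower, beside 14.6% and 16.8% of all rows, and between the mimics 4 were higher and 1 lower. SLC67A1, the carrier also named SLC22A18, gave 9.62 and 9.64 in the control, 10.80 and 10.98 after miR-608, and 9.41 and 9.52 after miR-552-3p. Both miR-608 arrays lay above the other 4, 2.39-fold higher (log2 fold change 1.26, SE 0.094, adjusted p = 0.00179). SLC68A1, the protein MFSD13A, gave 7.26 and 7.28 in the control, 5.90 and 6.12 after miR-608, and 5.88 and 6.22 after miR-552-3p, and of the mimic arrays only miR-552-3p array 2 was above background. It was at least 2.06-fold lower with miR-608 (fitted log2 fold change -1.26, adjusted p = 0.00459) and 2.33-fold lower (log2 fold change -1.22, SE 0.14, adjusted p = 0.00414) with miR-552-3p. SLC66A2, a PQ-loop protein also named PQLC1, gave 11.65 and 11.68 in the control, 10.68 and 10.72 after miR-608, and 11.08 and 11.17 after miR-552-3p. It was 1.95-fold lower (log2 fold change -0.96, SE 0.075, adjusted p = 0.00196) with miR-608 and 1.45-fold lower (log2 fold change -0.54, SE 0.075, adjusted p = 0.00643) with miR-552-3p. SLC75A1, also named MFSD10, gave 12.83 and 12.77 in the control, 13.17 and 13.12 after miR-608, and 12.29 and 12.33 after miR-552-3p and was 1.40-fold lower (log2 fold change -0.49, SE 0.072, adjusted p = 0.00796) with miR-552-3p. Its rise with miR-608 (log2 0.34, adjusted p = 0.0233) ended without control array 1, control array 2, miR-608 array 1 or miR-608 array 2 (adjusted p 0.075 to 0.103) and without the detection filter (adjusted p 0.0938). Without any 1 array the calls were 3 to 4 with miR-608, 3 to 6 with miR-552-3p and 3 to 5 between the mimics.

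The 14 members that are no transporter by their symbol had 3 higher and 4 lower with miR-608 and 3 higher and 2 lower with miR-552-3p. SLC2A4RG, a DNA-binding regulator named for the glucose transporter gene SLC2A4, gave 9.71 and 9.84 in the control, 8.31 and 8.41 after miR-608, and 9.09 and 9.11 after miR-552-3p. It was 2.67-fold lower (log2 fold change -1.42, SE 0.084, adjusted p = 0.00146) with miR-608 and 1.59-fold lower (log2 fold change -0.67, SE 0.084, adjusted p = 0.00498) with miR-552-3p. SLC9A3-OT1, a transcript that overlaps the SLC9A3 gene, gave 9.31 and 8.89 in the control, 7.79 and 7.96 after miR-608, and 8.78 and 8.96 after miR-552-3p and was 2.33-fold lower (log2 fold change -1.22, SE 0.17, adjusted p = 0.00702) with miR-608. The files do not state a strand for the probes used here, so signal from such a transcript and its partner gene cannot be told apart. SLC6A10P, a pseudogene of the creatine transporter gene, was 1.91-fold lower (log2 fold change -0.94, SE 0.12, adjusted p = 0.00587) with miR-608, and its probe may also read its parent. SLC38A4-AS1 was 2.65-fold higher (log2 fold change 1.41, SE 0.13, adjusted p = 0.0016) with miR-608 between the mimics on its brightest probe. Its second probe was not called (log2 fold change 0.24, adjusted p = 0.563). Where every array had to detect the probe, the brightest probe dropped out. The second then stood for the gene, with no call (adjusted p 0.485). The number called without any 1 array was 4 to 6 with miR-608, 1 to 3 with miR-552-3p and 5 to 6 between the mimics.

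Between the mimics the comparison uses no control array. The members with the largest differences were higher with miR-608 for SLC30A3, SLC22A17, SLC27A1, SLC36A1 and SLC40A1, and lower with miR-608 for SLC25A22, SLC3A1, SLC6A15, SLC35G1 and SLC7A1. Leaving out SLC9B2, which passed detection only through the miR-552-3p arrays, genes called higher with one mimic and lower with the other were as follows. They were SLC7A1, SLC25A22, SLC35G1 and SLC25A12 in the direction of miR-552-3p, and SLC35D2, SLC22A17, SLC27A1, SLC36A1, SLC25A29 and SLC4A11 among those in the direction of miR-608. SLC7A1, SLC25A22, SLC35G1 and SLC35D2 were the 4 of these 10 genes whose 3 calls held under every alternative. Both comparisons with the control use the same 2 control arrays, so a shift in those arrays moves both fold changes together. The genes changed the same way with both mimics, such as SLC12A4, SLC35G2, SLC30A7 and SLC25A24 (higher) and SLC16A9, SLC48A1, SLC7A2 and SLC37A4 (lower), carry that limit.

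**Figure D5:**
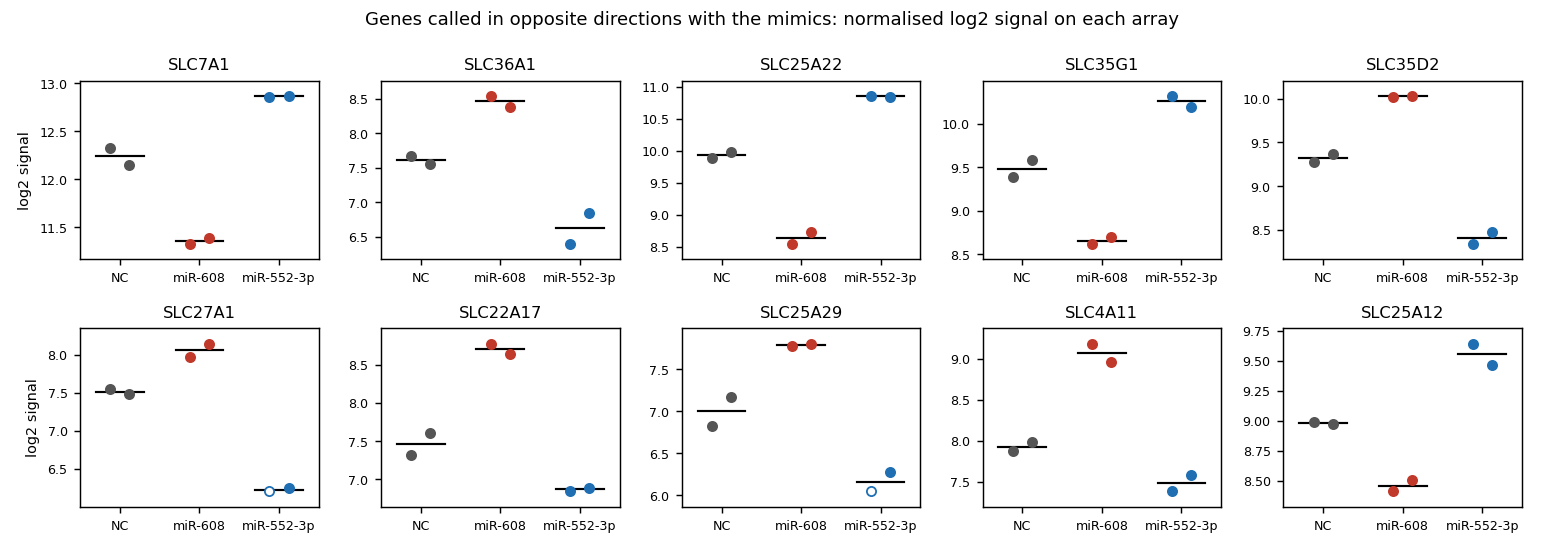
Normalised log2 signal (vertical axis, own scale in each panel) of 10 genes called in opposite directions with the mimics, on each array of the control (NC), miR-608 and miR-552-3p groups. Points are arrays, open points were not above background, and bars are group means; in every panel the control arrays lie between the mimic groups.

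Of 38 carriers that belong to the SLC superfamily under other symbols, 4 are members under their SLC names, 24 more were measured and 10 were not detected. With miR-608, 9 of the 24 were called higher and 1 lower, beside 14.3% and 15.0% of all rows. With miR-552-3p 4 were higher and 2 lower (14.6% and 16.8% of all rows). Between the mimics 6 were higher and 2 lower (18.9% and 18.2% of all rows), and the list was not tested. MFSD2A, counted among the 9 and the 6, was above background on the miR-608 arrays only. It entered only through the group in which it is high. NPC1, which moves cholesterol out of lysosomes, gave 11.31 and 11.34 in the control, 11.97 and 11.96 after miR-608, and 11.85 and 11.85 after miR-552-3p. It rose with miR-608 (log2 0.64, adjusted p = 0.00392) and also after miR-552-3p (log2 0.53, adjusted p = 0.00538), with no overlap with the control. MFSD8, a lysosomal membrane protein mutated in a neuronal ceroid lipofuscinosis, gave 8.94 and 8.79 in the control, 9.45 and 9.38 after miR-608, and 9.68 and 9.60 after miR-552-3p. It was higher with miR-552-3p (log2 0.77, adjusted p = 0.00396), and its rise with miR-608 (log2 0.55, adjusted p = 0.0115) ended without control array 2, miR-608 array 1 or miR-608 array 2 (adjusted p 0.0503 to 0.0622). SLCO1B3, an organic anion transporter of liver that tumours can express, gave 10.08 and 10.20 in the control, 10.44 and 10.51 after miR-608, and 10.90 and 10.87 after miR-552-3p. It was higher with miR-552-3p (log2 0.74, adjusted p = 0.00335), and the rise with miR-608 (log2 0.34, adjusted p = 0.0339) ended without any 1 of the 6 arrays (adjusted p 0.0656 to 0.136) and without the detection filter, with the replicate block or with only the compared groups in the fit (adjusted p 0.0561 to 0.117). CNNM3, of a family that acts on magnesium transport, gave 9.43 and 9.49 in the control, 9.79 and 9.79 after miR-608, and 8.83 and 8.90 after miR-552-3p. It was higher with miR-608 than with miR-552-3p (log2 0.92, adjusted p = 0.00117). Its fall with miR-552-3p (log2 -0.59, adjusted p = 0.00495) ended with the mean over probes (adjusted p 0.0782), and its rise with miR-608 (log2 0.33, adjusted p = 0.028) ended without any 1 of the 6 arrays (adjusted p 0.0522 to 0.117) and without the detection filter, with the replicate block, with the mean over probes or with only the compared groups in the fit (adjusted p 0.0506 to 0.108).

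Of 29 partners and regulators of SLC proteins, 19 were measured, 5 were not detected and 5 were not on the platform table used here. With miR-608, 4 were called higher and 6 lower, beside 14.3% and 15.0% of all rows. With miR-552-3p 4 were higher and 3 lower (14.6% and 16.8% of all rows). Between the mimics 3 were higher and 7 lower (18.9% and 18.2% of all rows), and this list was not tested. STK39, the kinase SPAK that phosphorylates and activates NKCC1 and inhibits potassium-chloride cotransporters, gave 11.22 and 11.22 in the control, 10.26 and 10.22 after miR-608, and 11.83 and 11.70 after miR-552-3p. It was lower with miR-608 (log2 -0.98, adjusted p = 0.00205) and higher with miR-552-3p (log2 0.54, adjusted p = 0.00725), with both control arrays in between. NEDD4L, a ubiquitin ligase that removes channels and carriers from the membrane, gave 8.29 and 8.28 in the control, 8.27 and 8.15 after miR-608, and 6.59 and 6.72 after miR-552-3p. Its miR-552-3p arrays lay below the other 4 (log2 -1.63, adjusted p = 0.000935). NHERF1, the scaffold that holds SLC9A3 and phosphate carriers at the apical membrane, gave 10.96 and 10.89 in the control, 9.57 and 9.52 after miR-608, and 10.51 and 10.54 after miR-552-3p. It was lower with miR-608 (log2 -1.38, adjusted p = 0.00136), and the smaller fall with miR-552-3p (log2 -0.40, adjusted p = 0.0135) ended without control array 1, miR-552-3p array 1 or miR-552-3p array 2 (adjusted p 0.0584 to 0.0696) and without the detection filter (adjusted p 0.0557). SGK1, a kinase that keeps channels and carriers at the membrane, gave 10.17 and 10.08 in the control, 9.49 and 9.41 after miR-608, and 10.22 and 10.19 after miR-552-3p and was lower with miR-608 (log2 -0.67, adjusted p = 0.0047).

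For 43 members a second or further probe passed detection, 53 such probes in all. The other probe and the brightest one had the same call in 38 cases with miR-608, 38 with miR-552-3p and 36 between the mimics. Opposite calls occurred once, for SLC38A10 with miR-552-3p, where the brightest probe was higher (log2 fold change 0.28, adjusted p = 0.0467) and the other lower (log2 fold change -0.84, adjusted p = 0.00353). The first of these calls ended without any 1 of the 6 arrays (adjusted p 0.0802 to 0.178) and with cyclic loess, without the detection filter, with the replicate block, with the mean over probes or with only the compared groups in the fit (adjusted p 0.0535 to 0.162). Chosen after its values were seen, SLC35A2, the UDP-galactose transporter, was not called on its brightest probe and was lower with miR-608 on the other (log2 fold change -1.13, adjusted p = 0.00836). Likewise SLC25A51, the mitochondrial NAD carrier, was not called on its brightest probe with miR-552-3p and higher on the other (log2 fold change 1.15, adjusted p = 0.0023). That other probe was also higher with miR-608 (log2 fold change 0.67, adjusted p = 0.0109), where the brightest was not called (log2 fold change -0.39). Which transcripts these probes read was not tested.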

How the data were processed

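RNA of A549 cells was measured on 6 Illumina bead arrays, in 3 groups of 2. Per the submitters' processing notes the data were read with GenomeStudio 2011.1. The deposited table holds non-normalized intensity values with a detection p-value for each of 47319 probes, and the authors also deposited log2 values for 17751 probes (median 9.53), whose normalization no source used here gives. Intensities were corrected and quantile normalized with limma's neqc (limma 3.58.1, R 4.3.3), with negative controls inferred from the detection p-values and an offset of 16. Probes had to reach a detection p below 0.05 on 2 or more arrays, which left 20749, and the brightest probe stood for each gene, giving 16891 rows. All 6 arrays entered 1 fit (lmFit, eBayes, 3 residual and 5.11 total degrees of freedom), with Benjamini-Hochberg adjustment over all rows at 0.05. A bound for a group below background uses, on each array, the higher of the lowest signal among detected probes and the probe's own. The fit was checked on simulated data. The number of arrays limits the precision.

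Symbols came from the platform annotation: 30112 probes had 1 gene symbol, 8 had several and 17199 were unlisted. Members, classes and gene lists were chosen with earlier results of these data known. Named members were the largest called changes each way against the control (12) and between the mimics (8), up to 4 a class by p, those called the same or opposite ways with both mimics, those detected in 1 group, and up to 4 genes a list by p. SLC11A2, SLC41A3, SLC49A4, SLC39A10, SLC39A9, SLC30A5, SLC26A6, SLC4A2, SLC12A9, SLC25A12, SLC25A25, SLC38A10, SLC35A2, SLC25A51 and MFSD2A were named after their values were seen. SLC4A1AP, SLC22A20P, SLC26A10P, SLC71A3P and SLC9A3-OT1 were set apart from the transporters once the symbols had been read. Alternatives changed the background correction, normalization, filter, probe choice, samples, variance prior and block, or left out 1 array.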

Additional observations from a re-analysis of the deposited data

Results flagged for a closer look

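These members were called in opposite directions with the 2 mimics against the control, and the direct comparison of the mimics was called too. SLC9B2 had such calls but is left out, because it passed detection only through the miR-552-3p arrays. No direction is read for it between the control and miR-608, which were both below background. The control arrays are shared, and the direct comparison does not use them. The values are log2 differences, miR-608 minus miR-552-3p. Higher with miR-608 were SLC22A17 (1.843), SLC27A1 (1.836), SLC36A1 (1.836), SLC25A29 (1.637), SLC35D2 (1.621), SLC4A11 (1.585), SLC38A4-AS1 (1.406), SLC35F5 (1.258), SLC2A8 (0.9933), SLC12A9 (0.9701), SLC39A9 (0.853) and SLC75A1 (0.8303). Lower with miR-608 were SLC25A22 (-2.207), SLC35G1 (-1.596), SLC7A1 (-1.501) and SLC25A12 (-1.093). Of these 16 members, 4 (SLC7A1, SLC25A22, SLC35D2 and SLC35G1) kept all 3 calls under every alternative, and each of the others lost at least 1 of them. For SLC38A4-AS1 the call against the control ended without control array 2 (adjusted p 0.0544) and when every array had to detect the probe or with the mean over probes (adjusted p 0.0709 to 0.627) for miR-608 and without control array 1, control array 2, miR-552-3p array 1 or miR-552-3p array 2 (adjusted p 0.0617 to 0.117) and without the detection filter, when every array had to detect the probe or with the mean over probes (adjusted p 0.0641 to 0.863) for miR-552-3p, and its direct call ended when every array had to detect the probe (adjusted p 0.485). On miR-552-3p array 1 SLC27A1, SLC25A29 and SLC38A4-AS1 were not above background. Where every array had to detect the probe, the brightest SLC38A4-AS1 probe therefore dropped out, and the values under that setting are those of its second probe. No group holds 4 arrays, so no array was tested as an outlier.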

How the results depend on the processing

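The numbers of members called were 95, 97 and 111 for miR-608 against control, miR-552-3p against control and miR-608 against miR-552-3p. Without the detection filter the miR-552-3p count was 58, and that fit adjusts over more rows. Leaving out 1 array gave 49 to 86, 53 to 80 and 76 to 103, and the lowest values came without an array of the groups compared. Every other alternative stayed within 1.5 times the main counts: without background correction, cyclic loess, the deposited log2 values, detection on all 6 arrays, the mean over probes, only the groups compared, an intensity trend and the replicate block. Of 178 named member changes, 124 held under every alternative, 52 ended when 1 array was left out, 34 ended under another alternative (some under both), and none reversed in sign. With the replicate number as a block, 86, 81 and 98 members were called. Deviations of same-numbered arrays correlated at -0.0229, 0.0282 and 0.000389, so the numbers were not taken to pair the arrays. A slide block was not run, because the files used here name no slide. Signal near background limits the 46 members detected on 2 to 5 arrays, of which 26.1%, 26.1% and 30.4% were called.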
